A study of Mus musculus with 12 samples.

Results

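The 39 mouse genes described here are interferon-stimulated genes together with the sensors and transcription factors that switch them on. They were taken as the rows of the deposited table whose Ensembl ID carries one of the listed symbols in GENCODE M21, and all 39 were found among its 40384 rows. By role they are 7 oligoadenylate synthetases, 5 genes of the Ifit family and the Isg15 system, 10 antiviral effectors, 4 genes for guanylate-binding proteins and the immunoproteasome, 5 other induced genes, 3 RNA sensors and 5 transcription factors. The rule itself uses no measured value, but the listed symbols were chosen with earlier results of these data known. Shares of the 39 genes set against all genes tested are therefore descriptions.

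Polyadenylated RNA was sequenced from 12 libraries in 4 groups of 3, in a study of the early embryonic transcription factor Dux during reprogramming of fibroblasts to induced pluripotent cells. The group labelled D4_DUX was at day 4 of reprogramming with the treatment OE-DUX, described as Dux overexpression for 48 h. The group D4 was at the same day with the treatment OE-NC. The group iPSC held induced pluripotent cells, and the group MEF held embryonic fibroblasts. The text on culture was the same for every library: fibroblasts of male midgestation embryos, homozygous for 4F2A, in medium with serum replacement, LIF and 2 μg/mL doxycycline. The 4F2A allele is known as a transgene in which a doxycycline-responsive promoter drives Oct4, Sox2, Klf4 and Myc from one transcript, so by this text every group, MEF included, carried it. The labels give no mouse strain, no number of embryos, no clone for the iPSC libraries, and no statement that the libraries of a group were separate cultures. If they were not, the p-values below cover only the spread between these libraries.

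In the interferon pathway, type I interferons bind the receptor chains Ifnar1 and Ifnar2, whose kinases Jak1 and Tyk2 phosphorylate Stat2. Stat2 joins Irf9 in a complex that binds the interferon-stimulated response element in the promoters of antiviral genes. RNA sensors such as Ddx58 and Ifih1 act upstream, where they start interferon production through Irf3 and Irf7. Fibroblasts are known to make and answer interferon, and pluripotent stem cells are known for a weak response.

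Depth was 22550000 to 28120000 counted fragments per library, recovered from the steps of the FPKM values (fragments per length of gene and depth of library), and 14287 to 15834 genes reached 1 FPKM. The targeted gene went against its label: Duxf3, the annotated Dux gene, was listed at 0 in all 3 libraries labelled D4_DUX, at 0.00741, 0.00747 and 0 FPKM in D4, and at no more than 0.0247 FPKM in iPSC and MEF, all below the 0.0396 to 0.0493 FPKM that 3 fragments give. The table has rows for Ensembl gene IDs only, so RNA of an added sequence that no such gene covers would not appear in it. The label is therefore used here as a name. Summed FPKM of 16 macrophage markers was 49.8 to 51.8 in the libraries labelled D4_DUX, 192 to 228 in D4, 178 to 218 in iPSC and 1604 to 1652 in MEF, and no marker was at 0 throughout a group. Summed FPKM of 12 fibroblast markers was 2560 to 2638 in the libraries labelled D4_DUX, 3350 to 3466 in D4, 781 to 1022 in iPSC and 6082 to 6208 in MEF. Markers of pluripotent cells summed to 1431 to 1583 FPKM in iPSC and to at most 5.92 FPKM in any other library. Summed FPKM of 7 endothelial markers was 20.3 to 22.7 in the libraries labelled D4_DUX, 14.1 to 14.6 in D4, 28.2 to 29.0 in iPSC and at most 0.862 in MEF, with Cldn5 at 0 throughout all groups but iPSC. Markers of lymphocytes and plasmacytoid dendritic cells summed to at most 1.83 FPKM in any library, with Siglech and Cd3d at 0 in every library of all groups but iPSC. The endothelial sum came mostly from Tek at day 4 (13.3 to 22.3 FPKM) and from Pecam1 in iPSC (24.0 to 25.0 FPKM). Lyz2 was the largest part of the macrophage sum in every library, at 1285 to 1328 FPKM in MEF. In bulk RNA, fewer cells of a type and less RNA per cell cannot be told apart. Counts of near-identical relatives may be split or shared by the authors' counting, which touches Oas1a, Oas1b and Oas1g, Ifit3, Ifi27, Mx1 and Mx2, and the Gbp genes. Strand use in counting is unknown from the sources used here.

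Interferon acts through short promoter elements, which were searched for in the promoter windows of these genes. Of the 39 genes, 29 matched the RefSeq promoter table of build GRCm38.p6, which holds 250 bases before to 50 after each gene start. The core of the interferon-stimulated response element, GAAA followed by any 2 bases and GAAA, was searched on both strands and stood in the windows of 16 of these 29 genes (55.2%), against 1131 of all 32851 windows (3.44%) and 1079 of 27025 genes (3.99%). The letters TTCNNNGAA, the core of the gamma-activated site, stood in 10 of the 29 genes (34.5%). Over the whole promoter set they stood in 2582 of 27025 genes (9.55%) and 2726 of all windows (8.30%). Matches of both kinds overlapped in the windows of Bst2 and Ifitm3. Oas1b, Oas2, Mx1, Mx2, Ifi27, Dhx58, Usp18, Parp14, Rtp4 and Zbp1 were not in the promoter table. The 6 windows printed are those with this core whose genes had the highest log2 fold change in the libraries labelled D4_DUX over D4 among the genes that passed the test. Each runs 5′ to 3′ on the strand of the gene, with the matches to the response element core, or to its reverse complement, in capitals. The windows are chr4:156200769-156201068 (minus strand) for Isg15, chr5:120907476-120907775 (minus) for Oas1a, chr19:34640639-34640938 (plus) for Ifit1, chr5:120887564-120887863 (minus) for Oas1g, chr10:128270248-128270547 (plus) for Stat2 and chr17:78882523-78882822 (minus) for Eif2ak2.
Isg15: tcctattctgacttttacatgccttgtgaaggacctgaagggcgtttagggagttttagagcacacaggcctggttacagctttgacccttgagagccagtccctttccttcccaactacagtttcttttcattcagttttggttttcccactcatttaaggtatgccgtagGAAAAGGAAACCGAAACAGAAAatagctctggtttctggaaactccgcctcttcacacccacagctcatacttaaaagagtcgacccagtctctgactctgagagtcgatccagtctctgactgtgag
Oas1a: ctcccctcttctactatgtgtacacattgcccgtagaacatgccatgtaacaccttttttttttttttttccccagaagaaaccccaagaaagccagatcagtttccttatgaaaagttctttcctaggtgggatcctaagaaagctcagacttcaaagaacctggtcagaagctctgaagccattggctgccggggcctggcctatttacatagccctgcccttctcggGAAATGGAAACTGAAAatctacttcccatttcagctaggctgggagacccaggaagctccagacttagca
Ifit1: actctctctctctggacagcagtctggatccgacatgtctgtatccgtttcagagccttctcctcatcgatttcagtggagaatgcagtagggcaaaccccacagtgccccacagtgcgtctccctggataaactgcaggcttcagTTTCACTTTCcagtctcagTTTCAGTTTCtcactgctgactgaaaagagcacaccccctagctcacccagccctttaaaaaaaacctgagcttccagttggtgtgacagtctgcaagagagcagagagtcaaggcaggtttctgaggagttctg
Oas1g: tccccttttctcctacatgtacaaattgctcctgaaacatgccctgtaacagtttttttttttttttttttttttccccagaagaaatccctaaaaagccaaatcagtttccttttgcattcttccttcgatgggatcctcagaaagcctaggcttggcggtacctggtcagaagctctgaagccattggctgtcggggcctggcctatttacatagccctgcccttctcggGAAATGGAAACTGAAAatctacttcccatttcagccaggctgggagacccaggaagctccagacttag
Stat2: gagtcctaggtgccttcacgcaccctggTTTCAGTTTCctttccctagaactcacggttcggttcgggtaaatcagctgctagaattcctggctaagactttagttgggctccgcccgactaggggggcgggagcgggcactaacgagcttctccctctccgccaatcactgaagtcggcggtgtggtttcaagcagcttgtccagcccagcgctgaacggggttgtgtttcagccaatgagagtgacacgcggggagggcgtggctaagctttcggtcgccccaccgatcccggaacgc
Eif2ak2: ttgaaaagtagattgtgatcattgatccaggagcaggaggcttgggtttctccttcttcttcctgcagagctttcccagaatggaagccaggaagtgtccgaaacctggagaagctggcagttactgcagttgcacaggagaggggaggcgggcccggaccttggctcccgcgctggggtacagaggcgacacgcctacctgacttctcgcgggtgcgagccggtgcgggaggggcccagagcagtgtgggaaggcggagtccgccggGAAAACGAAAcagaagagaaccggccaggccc

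The windows differed in how many matches they held and where. Positions are those of the first base of a match counted from the gene start in the promoter table, negative before it. That start can differ from the one in GENCODE M21. For Stat2 the whole window, which ends at 128270547, lies before the M21 start at 128270559. Isg15 had 3 overlapping matches at -78, -72 and -66. Oas1a and Oas1g carried the same capital letters, 2 overlapping matches at -20 and -14 in Oas1a and at -18 and -12 in Oas1g. Ifit1 had 2 separate matches on the opposite strand at -104 and -85. Stat2 had 1 match at -222, also on the opposite strand, and Eif2ak2 had 1 at 18. TTCNNNGAA stood apart from these at -98 in Oas1a and at -178 in Eif2ak2. A match is a description of letters and not a measured binding site. Of the 16 genes with the core in the window, 7 were among those that rose in the libraries labelled D4_DUX over D4, and of the 13 matched genes without it, 6 were.

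**Figure D1:**
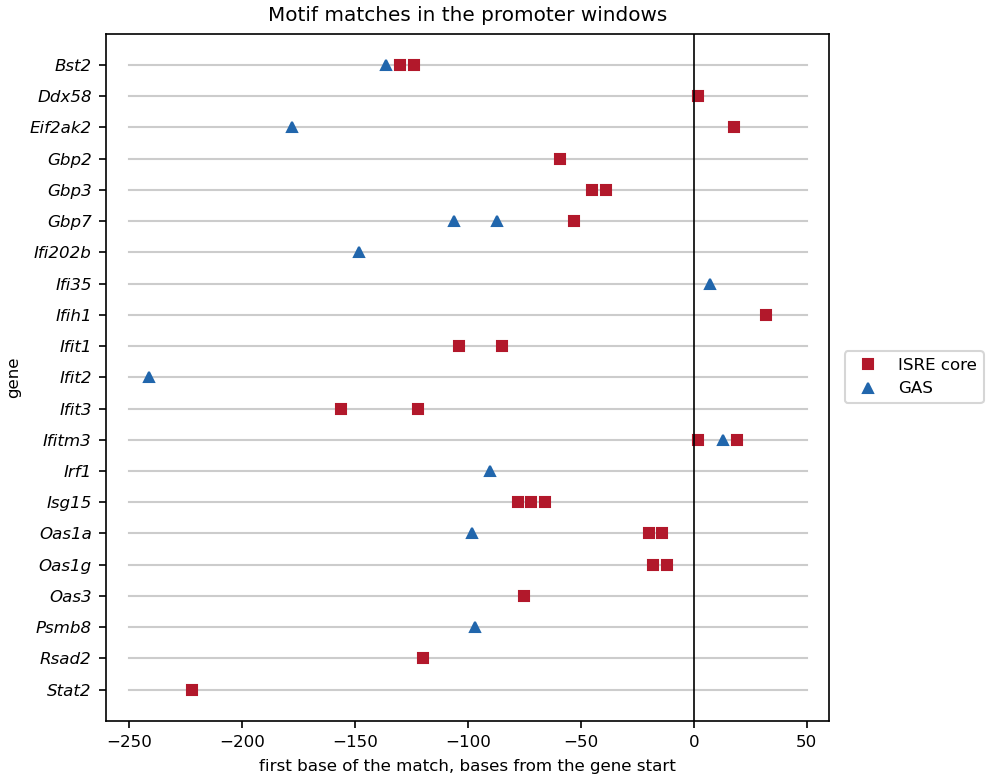
Positions of the response element core (ISRE core) and of the gamma-activated site (GAS) in the promoter windows of the matched genes. The x axis gives the distance of each match in bases from the gene start in the promoter table, with 1 gene per row. The matches of Isg15, Oas1a, Oas1g and Ifit1 lie between -104 and -12, and that of Stat2 lies at -222.

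The first comparison asked what the label of Dux overexpression went with at day 4. In the libraries labelled D4_DUX, 20 of the 39 genes rose over D4 (51.3%), against 20.1% of the 17114 genes tested, and 0 fell, against 15.4%. By limma 24 genes were higher and 0 lower at an unadjusted p under 0.05, and 1 gene, Oasl1, had a negative log2 fold change. The median log2 fold change of the 39 genes was 0.54, against 0.02 over all genes tested. All libraries labelled D4_DUX exceeded all D4 libraries for 26 genes, against 28.5% of all genes tested, and 0 genes had the reverse, against 21.9%. Leaving out D4 replicate 1 lowered the count of genes that rose to 13, and leaving out D4 replicate 2 raised it to 27. The summed macrophage markers given above went the other way (14 of 16 fell by limma and 0 rose, also 0 at an unadjusted p under 0.05). Fibroblast markers had 7 of 12 lower and 0 higher by limma (9 and 0 at an unadjusted p under 0.05), with a median log2 fold change of -0.39. The summed endothelial markers were higher in the libraries labelled D4_DUX, where 1 of the 2 tested rose. That sum was mostly Tek, at 22.3, 19.8 and 21.8 FPKM, against 13.3, 13.9 and 13.3 in D4. Kdr, Pecam1 and Vwf, all under 1 FPKM at day 4, were lower in every library labelled D4_DUX than in D4. The part of these cell types in the result was not tested.

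**Figure D2:**
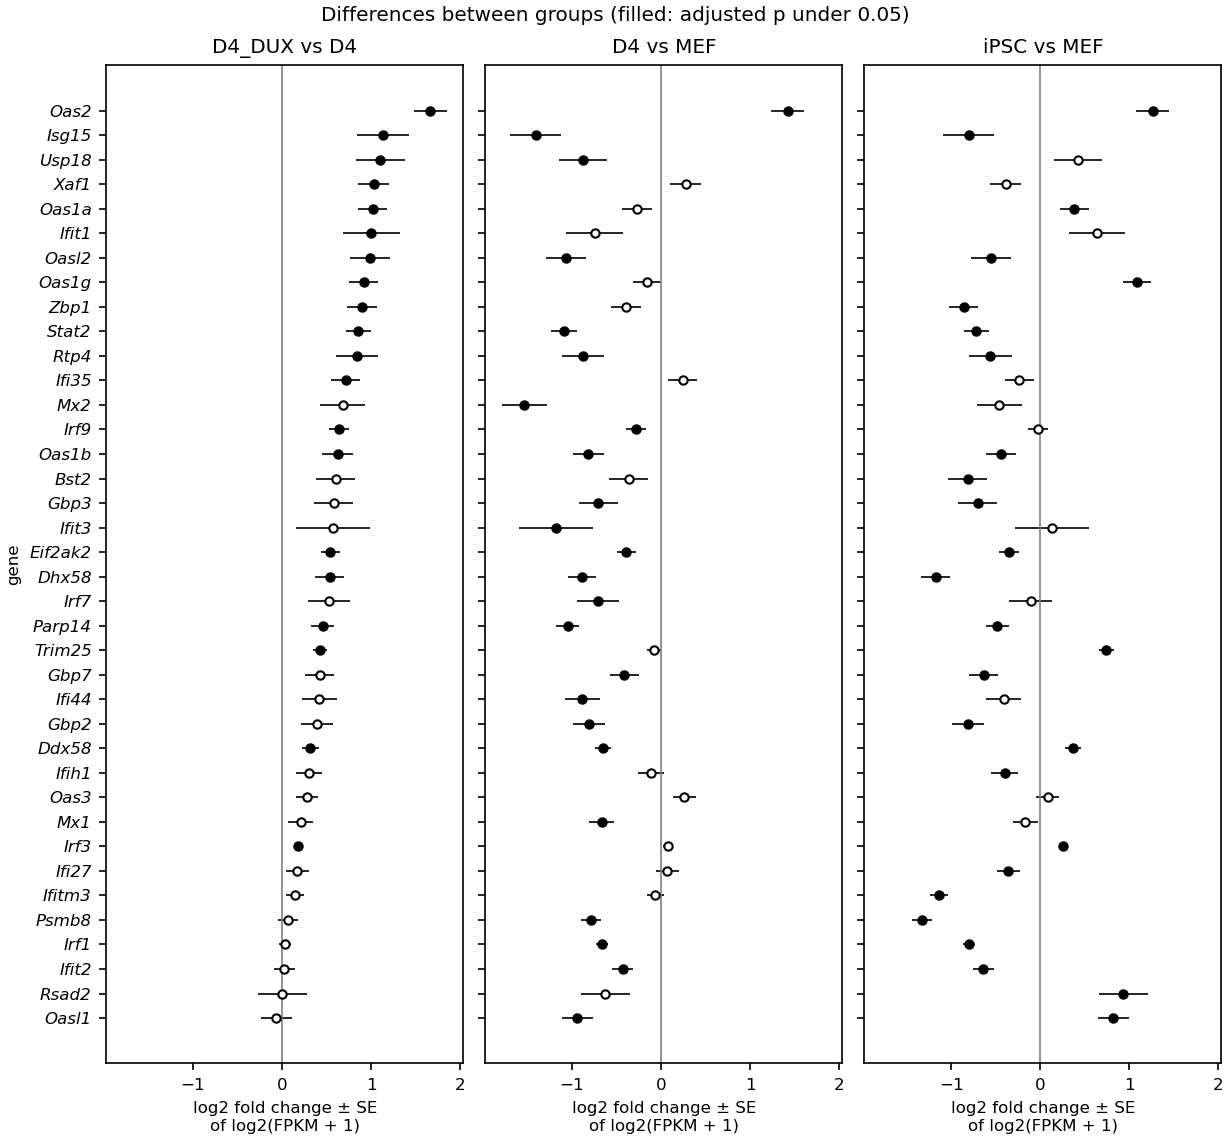
Log2 fold changes with their SE for the genes, without Ifi202b, in 3 panels: the libraries labelled D4_DUX over D4, then D4 over MEF, then iPSC over MEF; filled points have an adjusted p under 0.05. Points lie mostly right of 0 in the first panel, with Oas2 at 1.67, and mostly left of 0 in the second, where Oas2 at 1.42 is the only called gene on the right.

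The oligoadenylate synthetase family is named for enzymes that make short oligoadenylates on double-stranded RNA, an antiviral signal. Of its 7 genes here 5 rose, as RNA and not as measured enzyme activity. Oas2 (ENSMUSG00000032690, chromosome 5, 120730333 to 120749853) had 24.01, 23.9 and 24.2 FPKM in the libraries labelled D4_DUX, 6.02, 9.80 and 5.49 in D4, 7.22, 5.04 and 6.12 in iPSC and 1.91, 1.47 and 2.58 in MEF. The groups did not overlap between the libraries labelled D4_DUX and D4, and Oas2 had the highest log2 fold change of the 39 genes (log2 fold change 1.67, SE 0.19, adjusted p = 6.52e-05). Oas1a (ENSMUSG00000052776, chromosome 5, 120896256 to 120907521) had 20.9, 19.9 and 21.01 FPKM in the libraries labelled D4_DUX, 8.98, 12.5 and 8.06 in D4, 20.5, 13.53 and 14.2 in iPSC and 11.45, 10.7 and 13.7 in MEF. Every library labelled D4_DUX lay above every D4 library (log2 fold change 1.02, SE 0.16, adjusted p = 0.000754). Oas1g (ENSMUSG00000066861, chromosome 5, 120876142 to 120887613) had 5.73, 5.40 and 5.63 FPKM in the libraries labelled D4_DUX, 2.48, 3.33 and 1.83 in D4, 8.74, 6.19 and 7.15 in iPSC and 2.85, 2.34 and 3.63 in MEF. Its D4 and MEF values overlapped, and both lay below the other groups (log2 fold change 0.91, SE 0.16, adjusted p = 0.00122 for D4_DUX against D4). Oasl2 (ENSMUSG00000029561, chromosome 5, 114896936 to 114912234) had 14.3, 14.9 and 15.4 FPKM in the libraries labelled D4_DUX, 5.87, 10.7 and 5.37 in D4, 13.3, 8.08 and 10.5 in iPSC and 16.96, 12.6 and 18.3 in MEF, with D4 replicate 2 well above the other D4 libraries and still below the libraries labelled D4_DUX (log2 fold change 0.99, SE 0.22, adjusted p = 0.00578). Oas1b, a gene known in mice for resistance to flaviviruses and annotated as a polymorphic pseudogene, rose too, with 4.98, 4.45 and 4.39 FPKM in the libraries labelled D4_DUX, against 2.11, 3.39 and 2.52 in D4 (log2 fold change 0.62, SE 0.17, adjusted p = 0.0163).

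The remaining synthetase genes did not pass the test. Oas3 had 1.06, 1.56 and 1.602 FPKM in the libraries labelled D4_DUX, against 0.901, 1.31 and 0.745 in D4, which overlapped (log2 fold change 0.28, SE 0.13, adjusted p = 0.117). Oasl1, known in mice as a translational repressor of Irf7, was under 1 FPKM in all day 4 libraries, with 0.476, 0.400 and 0.625 FPKM in the libraries labelled D4_DUX, against 0.545, 0.710 and 0.455 in D4 (log2 fold change -0.07, SE 0.17, adjusted p = 0.823). Its values in iPSC were 6.03, 3.08 and 4.23 FPKM, above those in MEF at 2.27, 1.498 and 2.34 FPKM.

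The Ifit proteins bind viral RNA, and Isg15 is a ubiquitin-like protein that Usp18 removes from its targets while also damping receptor signalling. In this class 3 of 5 genes rose. Isg15 (ENSMUSG00000035692, chromosome 4, 156199424 to 156200818), whose window holds 3 matches above, had 122, 134 and 135 FPKM in the libraries labelled D4_DUX, 48.2, 93.6 and 44.8 in D4, 126, 74.6 and 76.9 in iPSC and 162, 117 and 206 in MEF. D4 replicate 2 stood well above the other D4 libraries for Isg15, and every library labelled D4_DUX was higher still (log2 fold change 1.14, SE 0.29, adjusted p = 0.0108). Usp18 (ENSMUSG00000030107, chromosome 6, 121245906 to 121270917) had 13.8, 13.2 and 13.95 FPKM in the libraries labelled D4_DUX, 4.83, 9.34 and 4.25 in D4, 22.3, 11.1 and 15.9 in iPSC and 11.49, 9.14 and 14.5 in MEF. All libraries labelled D4_DUX lay above D4 (log2 fold change 1.10, SE 0.27, adjusted p = 0.00887), and they overlapped with MEF. Ifit1 (ENSMUSG00000034459, chromosome 19, 34640871 to 34650009) had 26.9, 28.2 and 26.4 FPKM in the libraries labelled D4_DUX, 12.3, 20.6 and 8.66 in D4, 53.1, 23.8 and 35.9 in iPSC and 26.2, 16.1 and 27.2 in MEF, the widest ratio of highest to lowest D4 library among the genes that rose (log2 fold change 1.00, SE 0.32, adjusted p = 0.0299). Ifit3 had 23.1, 22.9 and 19.01 FPKM in the libraries labelled D4_DUX, against 11.4, 27.1 and 9.14 in D4 and did not pass (log2 fold change 0.57, SE 0.41, adjusted p = 0.321). D4 replicate 2 exceeded every library labelled D4_DUX for Ifit3. Ifit2, a partner of Ifit3 in RNA-binding complexes, had 6.38, 6.30 and 6.30 FPKM in the libraries labelled D4_DUX, against 6.13, 6.65 and 5.85 in D4 and also did not pass (log2 fold change 0.02, SE 0.12, adjusted p = 0.91).

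Of the 10 antiviral effectors 5 rose. Zbp1 (ENSMUSG00000027514, chromosome 2, 173206612 to 173218923), a sensor of Z-form nucleic acid that can trigger necroptosis, had 15.6, 16.5 and 16.2 FPKM in the libraries labelled D4_DUX, 7.54, 10.2 and 7.07 in D4, 7.27, 5.11 and 4.77 in iPSC and 11.1, 8.91 and 13.497 in MEF. Its groups at day 4 did not overlap (log2 fold change 0.90, SE 0.17, adjusted p = 0.00173). Eif2ak2 (ENSMUSG00000024079, chromosome 17, 78852564 to 78882573), the kinase PKR that halts translation on double-stranded RNA, had 23.1, 23.7 and 24.5 FPKM in the libraries labelled D4_DUX, 16.05, 17.3 and 14.8 in D4, 19.8, 14.2 and 16.03 in iPSC and 22.1, 18.6 and 23.5 in MEF, without overlap at day 4 (log2 fold change 0.54, SE 0.11, adjusted p = 0.00299). Trim25, a ubiquitin ligase that activates Ddx58, had 25.7, 26.7 and 26.8 FPKM in the libraries labelled D4_DUX, 19.3, 20.4 and 18.5 in D4, 38.5, 31.8 and 35.04 in iPSC and 22.1, 18.1 and 21.7 in MEF. It rose by less than Zbp1 but with a smaller error (log2 fold change 0.43, SE 0.08, adjusted p = 0.0017). Rtp4, an interferon-induced antiviral protein, had 14.2, 15.7 and 14.9 FPKM in the libraries labelled D4_DUX, against 7.52, 11.9 and 5.35 in D4 (log2 fold change 0.85, SE 0.24, adjusted p = 0.0171). Parp14, an ADP-ribosyltransferase, had 4.87, 4.50 and 5.05 FPKM in the libraries labelled D4_DUX, against 3.08, 3.76 and 2.88 in D4 (log2 fold change 0.46, SE 0.13, adjusted p = 0.018). Both rose without overlap.

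The effectors Mx2, Bst2, Rsad2, Mx1 and Ifitm3 did not pass. Mx2, a dynamin-like GTPase, had 2.95, 3.22 and 2.57 FPKM in the libraries labelled D4_DUX, 1.39, 1.85 and 1.13 in D4, 6.56, 2.39 and 4.30 in iPSC and 7.33, 4.35 and 6.91 in MEF (log2 fold change 0.68, SE 0.25, adjusted p = 0.0588 for D4_DUX against D4). Bst2, the tetherin that holds budding virions at the cell surface, had 237, 249 and 283 FPKM in the libraries labelled D4_DUX, against 158, 231 and 131 in D4 (log2 fold change 0.60, SE 0.22, adjusted p = 0.0513). Neither gene overlapped between the groups, and both missed the threshold. Rsad2, the radical-SAM enzyme viperin, had 1.17, 1.57 and 1.11 FPKM in the libraries labelled D4_DUX, 1.19, 1.79 and 0.913 in D4, 9.37, 3.002 and 6.24 in iPSC and 2.72, 2.06 and 2.79 in MEF, with full overlap at day 4 (log2 fold change 0.00, SE 0.28, adjusted p = 1.0). Mx1 was under 1 FPKM in every day 4 library, with 0.497, 0.723 and 0.425 FPKM in the libraries labelled D4_DUX, against 0.416, 0.479 and 0.138 in D4 (log2 fold change 0.21, SE 0.14, adjusted p = 0.276). Ifitm3, which blocks viral entry, was the most abundant of the 39 genes at day 4, with 964, 1073 and 1044 FPKM in the libraries labelled D4_DUX, against 878, 1075 and 839 in D4, and overlapped (log2 fold change 0.15, SE 0.10, adjusted p = 0.277).

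**Figure D3:**
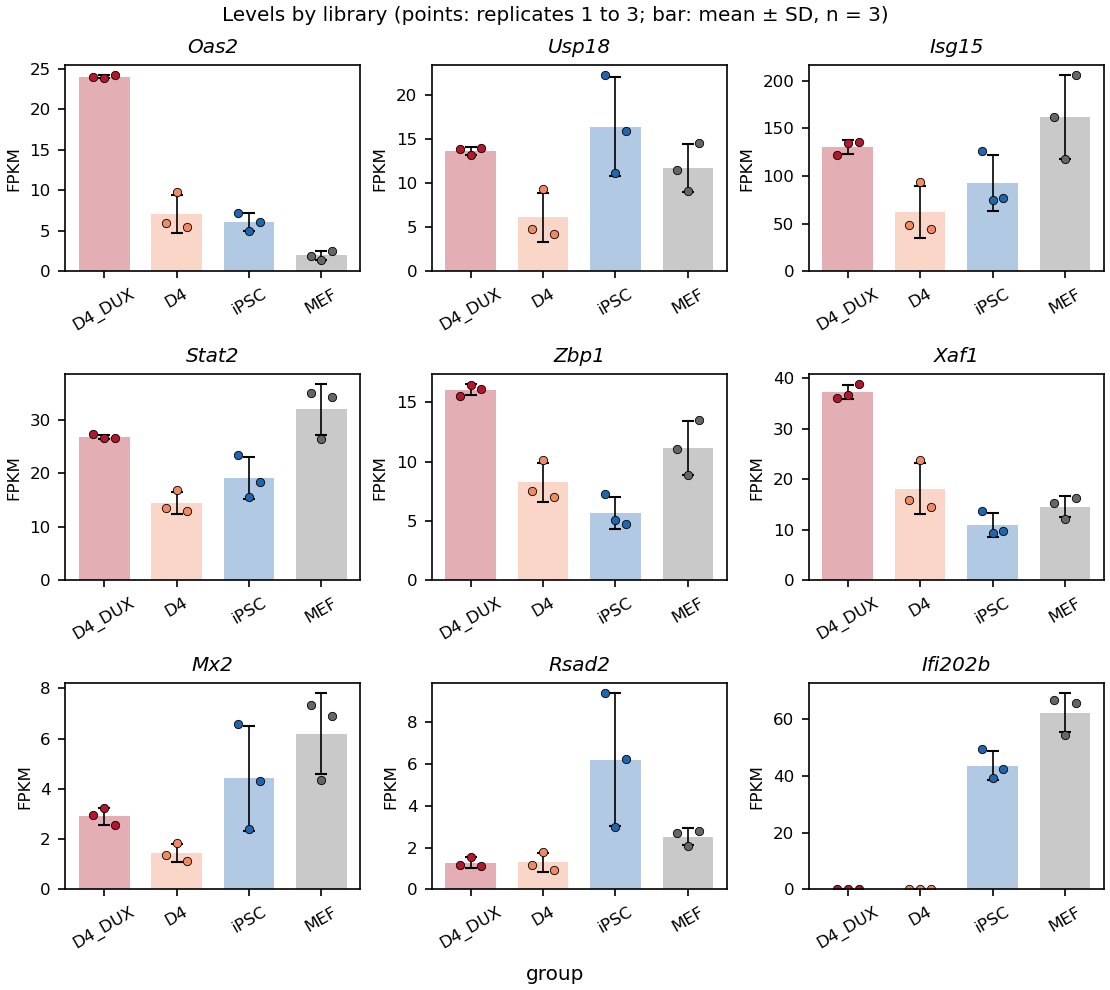
FPKM per library of Oas2, Usp18, Isg15, Stat2, Zbp1, Xaf1, Mx2, Rsad2 and Ifi202b, with 1 panel per gene and the groups D4_DUX, D4, iPSC and MEF from left to right; points are libraries and bars are means with the SD (n = 3). Oas2 is highest in the libraries labelled D4_DUX at 23.9 to 24.2 FPKM, and Ifi202b is at 0 in all 6 day 4 libraries.

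Among the other induced genes Xaf1 and Ifi35 rose. Xaf1 (ENSMUSG00000040483, chromosome 11, 72301629 to 72313733), which binds the apoptosis inhibitor XIAP, had 36.1, 36.8 and 38.9 FPKM in the libraries labelled D4_DUX, 15.9, 23.9 and 14.6 in D4, 13.7, 9.47 and 9.75 in iPSC and 15.2, 12.3 and 16.2 in MEF. The libraries labelled D4_DUX exceeded all other libraries (log2 fold change 1.03, SE 0.18, adjusted p = 0.00104 against D4). Ifi35 (ENSMUSG00000010358, chromosome 11, 101448407 to 101458698) had 20.8, 20.9 and 19.6 FPKM in the libraries labelled D4_DUX, 10.7, 15.7 and 10.4 in D4, 9.90, 6.78 and 8.77 in iPSC and 10.3, 8.42 and 11.6 in MEF and showed the same order at the top (log2 fold change 0.71, SE 0.16, adjusted p = 0.00542). Ifi44 had 5.25, 4.95 and 4.93 FPKM in the libraries labelled D4_DUX, against 2.98, 4.87 and 2.94 in D4, a narrow gap that did not pass (log2 fold change 0.42, SE 0.20, adjusted p = 0.123), and Ifi27 had a log2 fold change of 0.17 (adjusted p = 0.342).

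None of the 4 genes for guanylate-binding proteins, GTPases that attack pathogen vacuoles, and for the immunoproteasome passed by limma (2 of them at an unadjusted p under 0.05). Gbp3 had 10.2, 9.92 and 10.7 FPKM in the libraries labelled D4_DUX, against 6.002, 8.80 and 5.25 in D4 (log2 fold change 0.58, SE 0.22, adjusted p = 0.0607). Gbp7 had 5.49, 5.29 and 5.69 FPKM in the libraries labelled D4_DUX, against 3.64, 4.37 and 3.54 in D4 (log2 fold change 0.42, SE 0.16, adjusted p = 0.0644). Both were without overlap. Gbp2 had a log2 fold change of 0.39 (adjusted p = 0.122), and Psmb8, the inducible catalytic subunit of the proteasome, had 0.06 (adjusted p = 0.725).

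Of the 3 RNA sensors, Dhx58 and Ddx58 rose. Dhx58 (ENSMUSG00000017830, chromosome 11, 100694884 to 100704271), the regulator LGP2, had 5.28, 5.18 and 5.48 FPKM in the libraries labelled D4_DUX, 2.81, 4.72 and 2.78 in D4, 2.92, 2.24 and 2.58 in iPSC and 7.18, 5.70 and 8.55 in MEF (log2 fold change 0.54, SE 0.16, adjusted p = 0.0235). Ddx58 (ENSMUSG00000040296, chromosome 4, 40203773 to 40239828), the sensor RIG-I, had 13.46, 14.7 and 14.6 FPKM in the libraries labelled D4_DUX, 10.6, 12.9 and 10.4 in D4, 24.7, 22.04 and 24.6 in iPSC and 19.6, 15.97 and 19.4 in MEF (log2 fold change 0.32, SE 0.09, adjusted p = 0.0186). Neither overlapped at day 4, with gaps of less than 1 FPKM between the nearest libraries. Ifih1, the sensor MDA5, had 4.84, 4.65 and 4.53 FPKM in the libraries labelled D4_DUX, against 3.26, 4.37 and 3.23 in D4, which did not overlap and did not pass (log2 fold change 0.31, SE 0.15, adjusted p = 0.138).

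Of the 5 transcription factors 3 rose. Stat2 (ENSMUSG00000040033, chromosome 10, 128270559 to 128292849) had 27.2, 26.6 and 26.6 FPKM in the libraries labelled D4_DUX, 13.4, 16.9 and 13.05 in D4, 23.4, 15.6 and 18.3 in iPSC and 34.99, 26.5 and 34.3 in MEF, with no overlap at day 4 (log2 fold change 0.86, SE 0.14, adjusted p = 0.000925). Irf9 (ENSMUSG00000002325, chromosome 14, 55603571 to 55610030), its DNA-binding partner, had 14.3, 13.9 and 13.7 FPKM in the libraries labelled D4_DUX, 8.19, 10.4 and 7.49 in D4, 12.4, 9.66 and 9.81 in iPSC and 11.1, 9.71 and 11.49 in MEF (log2 fold change 0.64, SE 0.11, adjusted p = 0.00126). All libraries labelled D4_DUX lay above the other 9 for Irf9. Irf3, which is activated by phosphorylation rather than made on demand, had 10.9, 10.5 and 10.3 FPKM in the libraries labelled D4_DUX, against 8.54, 9.50 and 9.58 in D4, a small rise (log2 fold change 0.18, SE 0.05, adjusted p = 0.0189). Irf7, the interferon-inducible factor for interferon genes, had 9.51, 11.6 and 11.4 FPKM in the libraries labelled D4_DUX, against 5.91, 11.7 and 5.28 in D4, where D4 replicate 2 lay above all libraries labelled D4_DUX (log2 fold change 0.53, SE 0.24, adjusted p = 0.113). Irf1 had 5.49, 5.31 and 4.999 FPKM in the libraries labelled D4_DUX, against 4.98, 5.35 and 5.001 in D4 (log2 fold change 0.04, SE 0.07, adjusted p = 0.733).

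Of the 20 genes that rose, Trim25, Irf9, Ifi35, Eif2ak2, Zbp1, Oasl2, Usp18, Oas2, Isg15, Stat2, Xaf1, Oas1a and Oas1g passed under every alternative run. The other 7 lost the call when single libraries were left out, with highest adjusted p of 0.0759 for Irf3, 0.0877 for Dhx58, 0.0653 for Oas1b, 0.0613 for Rtp4, 0.0644 for Parp14, 0.111 for Ifit1 and 0.0693 for Ddx58. Leaving out D4 replicate 1 ended all 7 of these calls, leaving out D4 replicate 3 or replicate 1 labelled D4_DUX ended 5 each, and leaving out replicate 2 or 3 labelled D4_DUX ended 4 each.

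The second comparison followed the genes from fibroblasts to day 4 without the Dux label. In D4, 24 of the 39 genes fell against MEF (61.5%), against 27.6% of all genes tested, and 1 rose, against 34.2%. The median log2 fold change was -0.66 over the 39 genes and 0.03 over all genes tested. All D4 libraries lay below all MEF libraries for 19 genes (29.8% of all genes tested) and above them for 1 (36.7%). Macrophage markers fell in 16 of 16, with the sums given above, and fibroblast markers fell in 8 of 12 and rose in 4, and their part in the result was not tested. This comparison shares the D4 libraries with the one above, so both lists of calls rest in part on the same values.

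Every class but the synthetases moved one way where it moved. Of the 7 synthetases, Oas2 rose (log2 fold change 1.42, SE 0.19, adjusted p = 4.22e-05) while Oasl2 fell (log2 fold change -1.07, SE 0.22, adjusted p = 0.00143), as did Oasl1 (-0.94, adjusted p = 0.000577) and Oas1b (-0.82, adjusted p = 0.00152). Oasl1, Mx1 and Ifi202b, which are counted among the 24, reached 1 FPKM in MEF and iPSC libraries only and entered the test through them. In the Ifit and Isg15 class 4 of 5 fell. Isg15 averaged 62.2 ± 27.2 FPKM in D4 and 162 ± 44.2 FPKM in MEF (SD, n = 3 each; log2 fold change -1.41, SE 0.29, adjusted p = 0.00124). Usp18 (-0.88, adjusted p = 0.0146), Ifit2 (-0.43, adjusted p = 0.00783) and Ifit3 (-1.18, adjusted p = 0.0277) fell as well. Among the effectors 5 of 10 fell. Mx2 averaged 1.46 ± 0.365 FPKM in D4 and 6.20 ± 1.61 FPKM in MEF (SD, n = 3 each), the largest fall of a gene expressed in both groups (log2 fold change -1.54, SE 0.25, adjusted p = 0.00026). Parp14 averaged 3.24 ± 0.461 FPKM in D4 and 7.77 ± 1.08 FPKM in MEF (SD, n = 3 each; log2 fold change -1.05, SE 0.13, adjusted p = 2.59e-05).

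All 4 genes for guanylate-binding proteins and the immunoproteasome fell. Psmb8 had 3.87, 4.74 and 3.21 FPKM in D4, against 7.11, 6.92 and 8.39 in MEF (log2 fold change -0.79, SE 0.11, adjusted p = 8.2e-05), with no overlap. Gbp2 had 7.68, 10.01 and 5.83 FPKM in D4, against 14.2, 12.6 and 15.9 in MEF (log2 fold change -0.81, SE 0.18, adjusted p = 0.00231), also with no overlap. Gbp3 and Gbp7 overlapped and had -0.71 and -0.42 (adjusted p = 0.0148 and 0.0445). Of the sensors Dhx58 (-0.89, adjusted p = 0.000508) and Ddx58 (-0.65, adjusted p = 6.81e-05) fell, and Ifih1 had -0.11 (adjusted p = 0.548). Of the transcription factors 4 of 5 fell. Stat2 averaged 14.5 ± 2.12 FPKM in D4 and 31.9 ± 4.72 FPKM in MEF (SD, n = 3 each; log2 fold change -1.09, SE 0.14, adjusted p = 4.07e-05). Irf1, a factor that interferon gamma induces, had 4.98, 5.35 and 5.001 FPKM in D4, against 9.13, 8.68 and 8.22 in MEF (log2 fold change -0.66, SE 0.07, adjusted p = 5.18e-06), with closely spaced libraries in both groups. Irf3 had 0.08 (adjusted p = 0.23).

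Genes that did not pass between D4 and MEF numbered 14, among them Xaf1 at 0.27 (adjusted p = 0.201), Ifi35 at 0.24 (adjusted p = 0.214), Oas1a at -0.27 (adjusted p = 0.177), Zbp1 at -0.39 (adjusted p = 0.0593), Ifit1 at -0.75 (adjusted p = 0.0606) and Trim25 at -0.08 (adjusted p = 0.416). Of the 25 calls, those of Irf9, Irf7, Gbp3, Usp18, Gbp7 and Ifit3 did not survive every library left out, with highest adjusted p of 0.17, 0.0976, 0.0641, 0.0623, 0.175 and 0.11. Leaving out D4 replicate 3 or MEF replicate 3 ended all 6 of them, D4 replicate 1 ended 5 and MEF replicate 1 ended 4, and without MEF replicate 3 the log2 fold change of Gbp7 was -0.27 in place of -0.42.

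Set against MEF directly, the libraries labelled D4_DUX split the genes. In them 10 of 39 rose over MEF (39% of all genes tested) and 9 fell (26.8%), and the median log2 fold change was -0.08, against 0.06 over all genes tested. All libraries labelled D4_DUX lay above all MEF libraries for 11 genes (41.9% of all genes tested) and below them for 13 (29.5%). Oas2 averaged 24.04 ± 0.183 FPKM in the libraries labelled D4_DUX and 1.99 ± 0.562 FPKM in MEF (SD, n = 3 each; log2 fold change 3.09, SE 0.19, adjusted p = 4.25e-08). Xaf1 followed (log2 fold change 1.30, SE 0.18, adjusted p = 4.19e-05), then Ifi35 (0.96, adjusted p = 0.000243), Oas1g (0.75, adjusted p = 0.00135) and Oas1a (0.74, adjusted p = 0.00177). Oas3, Zbp1, Irf9, Trim25 and Irf3 rose by 0.54, 0.50, 0.35, 0.35 and 0.26, of which Oas3 reached 1 FPKM in day 4 libraries only. Those that fell were Ifi202b, described below, Oasl1 (-1.01), Mx2 (-0.86), Psmb8 (-0.72), Irf1 (-0.63), Parp14 (-0.59), Mx1 (-0.46), Ifit2 (-0.40) and Ddx58 (-0.33). Isg15 had -0.27 (adjusted p = 0.436), Usp18 0.23 (adjusted p = 0.493) and Stat2 -0.23 (adjusted p = 0.174), none past the threshold. The calls of Irf9 and Zbp1 were lost without MEF replicate 2 (adjusted p = 0.0667 and 0.0816) and with quantile normalization. The 16 macrophage markers all fell in this comparison, and their part in the result was not tested.

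**Figure D4:**
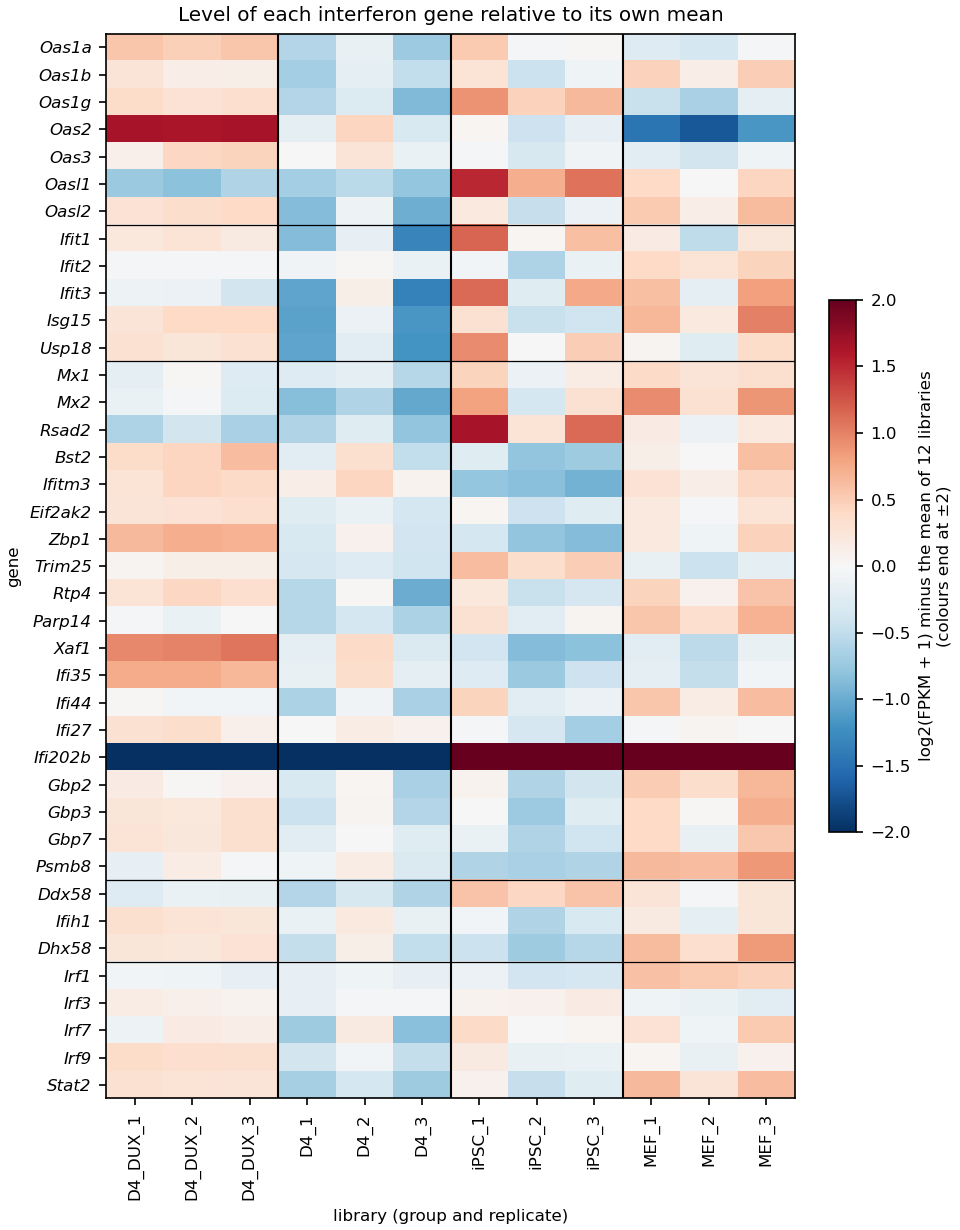
Heatmap of the genes by library, with rows ordered by role and columns ordered D4_DUX, D4, iPSC and MEF; colour gives the log2(FPKM + 1) of a library minus the mean of that gene over the 12 libraries. Within D4, iPSC and MEF, neighbouring columns differ in the same direction for most genes, and the 3 columns labelled D4_DUX look alike.

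Induced pluripotent cells were compared with the fibroblasts. In iPSC, 20 of 39 genes fell against MEF (51.3%), against 31.2% of all genes tested, and 8 rose (20.5%), against 51%. The median log2 fold change was -0.40 over the 39 genes and 0.21 over all genes tested, a median that was 0.04 with median-ratio scaling and -0.07 with quantile normalization. Of all called genes 62.1% were higher as deposited, 52.3% with median-ratio scaling and 46.6% with quantile normalization, and the 39 genes gave 5 higher and 24 lower, and 5 higher and 27 lower, under these scalings. All iPSC libraries lay below all MEF libraries for 12 genes (31.3% of all genes tested) and above them for 7 (51.1%). Fibroblast markers fell in 11 of 12 and macrophage markers in 15 of 16, with the sums given above, and their part in the result was not tested.

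The largest falls in iPSC were those of Psmb8, Dhx58 and Ifitm3. Psmb8 had 2.42, 2.30 and 2.41 FPKM in iPSC, against 7.11, 6.92 and 8.39 in MEF (log2 fold change -1.32, SE 0.11, adjusted p = 3.9e-07). Ifitm3 averaged 441 ± 27.6 FPKM in iPSC and 971 ± 97.6 FPKM in MEF (SD, n = 3 each; log2 fold change -1.13, SE 0.10, adjusted p = 5.35e-07). Dhx58 (log2 fold change -1.17, SE 0.16, adjusted p = 2.9e-05) and Zbp1 (log2 fold change -0.86, SE 0.17, adjusted p = 0.000472) did not overlap between the groups, nor did Bst2, Gbp2, Gbp3, Irf1, Stat2, Parp14 and Ifit2, whose log2 fold changes ran from -0.81 for Bst2 to -0.48 for Parp14. Isg15 fell with overlap (log2 fold change -0.80, SE 0.29, adjusted p = 0.0231). Gbp7, Rtp4, Oasl2, Oas1b, Ifih1, Ifi27 and Eif2ak2 fell with overlap, with log2 fold changes from -0.63 for Gbp7 to -0.35 for Eif2ak2, and Ifi202b is described below.

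The genes that rose in iPSC were led by synthetases and by viperin. Oas2 averaged 6.13 ± 1.09 FPKM in iPSC and 1.99 ± 0.562 FPKM in MEF (SD, n = 3 each; log2 fold change 1.26, SE 0.19, adjusted p = 5.69e-05). Oas1g averaged 7.36 ± 1.29 FPKM in iPSC and 2.94 ± 0.648 FPKM in MEF (SD, n = 3 each; log2 fold change 1.09, SE 0.16, adjusted p = 5.27e-05). Rsad2, with the values given above, rose without overlap (log2 fold change 0.93, SE 0.28, adjusted p = 0.00819), and without iPSC replicate 1, its highest library, the log2 fold change was 0.62 (adjusted p = 0.0297). Its call was lost with array weights (adjusted p = 0.0666). Oasl1 rose (log2 fold change 0.82, SE 0.17, adjusted p = 0.000952), as did Trim25 (log2 fold change 0.74, SE 0.08, adjusted p = 3.02e-06). Ddx58 (0.36), Irf3 (0.26) and Oas1a (0.38) passed as deposited (adjusted p = 0.00297, 0.000648 and 0.0484). All lost the call under both median-ratio scaling and quantile normalization, and Irf3 turned to -0.02 under the second. Oas1a lost the call in 10 of 16 alternatives, among them a pseudocount of 0.1, no filter, array weights and a replicate block. A fit on only the compared groups ended the Oas1a call too. Mx2, Usp18, Ifit1, Ifit3 and Irf7 did not pass, at -0.46 (adjusted p = 0.115), 0.43 (adjusted p = 0.164), 0.64 (adjusted p = 0.0822), 0.14 (adjusted p = 0.772) and -0.11 (adjusted p = 0.689).

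Single libraries decided several of these calls. Without iPSC replicate 2 those of Eif2ak2, Ifih1, Oasl2, Oas1b, Rtp4 and Isg15 were lost, and the log2 fold changes of Ifih1 and Oas1b shrank to -0.26 and -0.27 against -0.40 and -0.44 with all libraries. MEF replicate 1 ended 6 calls and MEF replicate 3 ended 6, among them Isg15 in both (highest adjusted p = 0.0924). Leaving out iPSC replicate 3 ended 5, Ifi27 included (-0.19, adjusted p = 0.0881), and MEF replicate 2 ended those of Oas1a and Ifi27. Oas1a also lost its call without iPSC replicate 1 (0.21, adjusted p = 0.209).

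Ifi202b (ENSMUSG00000026535, chromosome 1, 173962568 to 173982744), a DNA-binding protein of the p200 family known in mice to oppose Aim2, stood apart from the other 38 genes. It was listed at 0 in all 3 libraries labelled D4_DUX and in all 3 D4 libraries, and it had 49.5, 39.3 and 42.4 FPKM in iPSC and 66.8, 54.5 and 65.9 FPKM in MEF. With 3 fragments worth 0.0629 to 0.0784 FPKM, the day 4 libraries held less than that and the other libraries far more. Between iPSC and MEF it fell without overlap (log2 fold change -0.50, SE 0.09, adjusted p = 0.000192). Only this gene of the table was at 0 in all 6 day 4 libraries and at 10 FPKM or more in all 6 MEF and iPSC libraries, a threshold chosen after its values were seen. The reverse held for Hbb-y and Gm44393. The labels do not say whether the day 4 cells and the other cells came from the same preparation or strain background, which bears on every value of either day 4 group against MEF.

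The order of the group means also varied by gene. MEF held the highest mean of 18 genes, the libraries labelled D4_DUX that of 12, iPSC that of 9 and D4 that of 0. The lowest mean, leaving out Ifi202b, lay in D4 for 20 genes, in iPSC for 13, in MEF for 3 and in the libraries labelled D4_DUX for 2. Highest and lowest group means were not counted over all genes tested. Whether these counts are particular to the genes described here was therefore not tested. Many neighbours in the orders of group means overlapped, as the values above show for Usp18, Isg15 and Ifit1.

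The spread between libraries of a group was wide in 3 groups and narrow in the fourth. The median SD of log2(FPKM + 1) over the genes was 0.052 in the libraries labelled D4_DUX, 0.251 in D4, 0.279 in iPSC and 0.212 in MEF. Over all genes tested it was 0.055 in the libraries labelled D4_DUX, 0.067 in D4, 0.079 in iPSC and 0.062 in MEF. The ratio of the 39 genes to all genes was 0.96 in the libraries labelled D4_DUX, 3.74 in D4, 3.51 in iPSC and 3.44 in MEF. The highest library of a group exceeded the lowest by more than 1.5 times in FPKM for 3 genes in the libraries labelled D4_DUX, 23 in D4, 22 in iPSC and 14 in MEF. The widest were Mx1 at 1.70 times in the libraries labelled D4_DUX, Mx1 at 3.47 times in D4, Rsad2 at 3.12 times in iPSC and Ifit3 at 2.05 times in MEF. Genes past 1.5 times were not counted over all genes tested, and Mx1 was under 1 FPKM in every day 4 library.

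The genes shared their high and low libraries. D4 replicate 2 was the highest D4 library for 37 of the 38 genes with signal, and D4 replicate 3 was the lowest for 34. In iPSC, replicate 1 was the highest for 38 of 39 genes and replicate 2 the lowest for 35. In MEF, replicate 3 was the highest for 30 of 39 and replicate 2 the lowest for 36. Among the libraries labelled D4_DUX the highest was spread over replicates 1, 2 and 3 with 11, 12 and 15 genes. Over all genes tested, each library was the highest of its group for 27.9 to 37.8% of them. The median deviation from the group mean in log2(FPKM + 1) over these genes was 0.28 in D4 replicate 2, 0.29 in iPSC replicate 1 and 0.16 in MEF replicate 3, against -0.20 in D4 replicate 3, -0.23 in iPSC replicate 2 and -0.23 in MEF replicate 2.

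Depth and other cell types were set beside these libraries. Counted fragments were 22550000, 24850000 and 24900000 in D4 replicates 1 to 3, where the highest and lowest libraries for these genes, replicates 2 and 3, had nearly the same depth. They were 24060000, 24130000 and 26240000 in iPSC replicates 1 to 3, where the highest and lowest libraries, replicates 1 and 2, also lay close. In MEF they were 22550000, 23500000 and 28120000, and replicate 3, the highest for most of these genes, was the deepest. Macrophage markers summed to 207, 228 and 192 FPKM in D4 replicates 1 to 3, in the same order as the median deviation of these genes. In iPSC they summed to 198, 218 and 178 FPKM, and replicate 2 was highest in markers and lowest in these genes. In MEF the sums were 1604, 1634 and 1652 FPKM, and replicate 3 was highest in both. Most of each MEF sum was Lyz2, at 1285, 1295 and 1328 FPKM. Of the other markers, Csf1r, Cd14, Fcgr1 and Tyrobp were also highest in MEF replicate 3, and Ctss in MEF replicate 1. Cd68, Adgre1, C1qa, C1qb, C1qc, Mrc1, Aif1, Cx3cr1, Itgam and Laptm5 were highest in MEF replicate 2, the lowest library for most of the 39 genes. The part of these values in the spread was not tested.

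**Figure D5:**
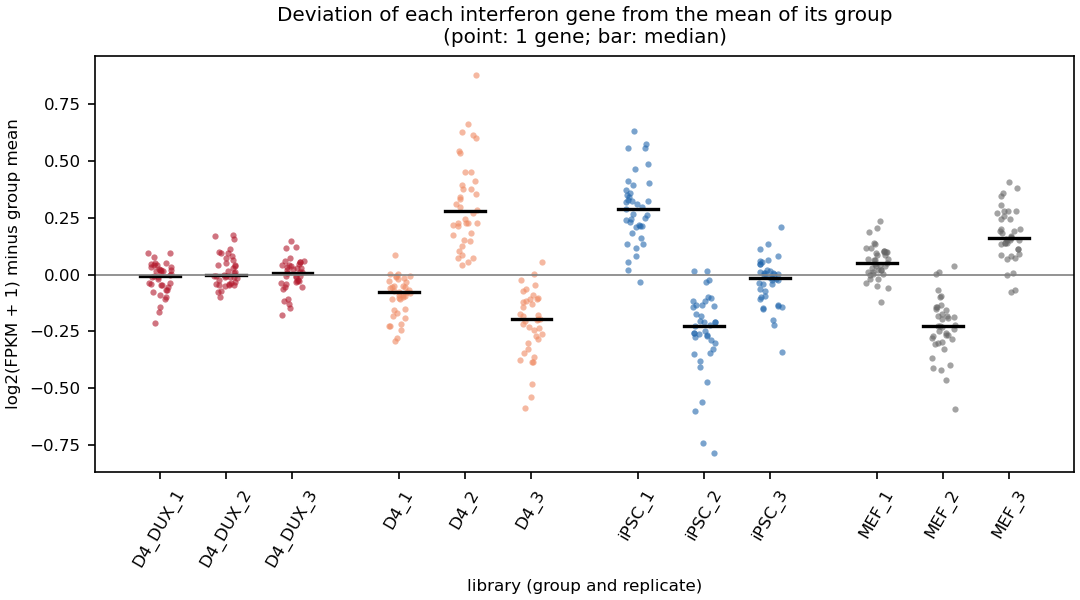
Deviation of each gene from its group mean in log2(FPKM + 1), by library, in the order D4_DUX, D4, iPSC and MEF; each point is a gene and each bar the median. Points of D4 replicate 2 and iPSC replicate 1 lie nearly all above 0, those of D4 replicate 3, iPSC replicate 2 and MEF replicate 2 nearly all below it, and those of the libraries labelled D4_DUX close to 0.

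The rest of the pathway was described with gene lists that share no gene with the 39. These lists too were chosen with earlier results of these data known. Of the interferon genes looked up, a list without every gene for interferon alpha, 8 were in the table. The highest value among them was 0.372 FPKM, for Ifnz. Ifnb1, the interferon that fibroblasts are known to make first, reached 3 fragments in iPSC replicate 2 and MEF replicate 3, was at most 0.221 FPKM and was listed at 0 in 8 libraries, all 3 labelled D4_DUX among them. Of 6 tested genes for interferon receptors, 4 fell in the libraries labelled D4_DUX against D4 and 0 rose by limma, also 0 at an unadjusted p under 0.05. Of all genes tested, 15.4% fell and 20.1% rose in this comparison. Ifnar2 had 12.97, 13.7 and 13.8 FPKM in the libraries labelled D4_DUX, against 16.2, 17.7 and 16.8 in D4 (log2 fold change -0.30, SE 0.06, adjusted p = 0.00424), and Ifnar1 had 13.4, 12.6 and 12.4 FPKM in the libraries labelled D4_DUX, against 14.7, 14.3 and 14.8 in D4 (log2 fold change -0.18, SE 0.04, adjusted p = 0.00811). The receptor chains for interferon gamma and lambda, Ifngr2 and Ifnlr1, fell by 0.26 and 0.23 on the log2 scale (adjusted p = 0.00978 and 0.00906). Ifnlr1, counted among the 4, was under 1 FPKM in every day 4 and MEF library and entered the test through iPSC only.

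Of 16 genes of signal transduction and its inhibitors, 2 rose and 4 fell in the libraries labelled D4_DUX against D4. Of all genes tested, 20.1% rose and 15.4% fell. Stat3, a factor downstream of many cytokines, rose (0.16, adjusted p = 0.00387). The inhibitors Cish and Ptpn6 fell (-0.31 and -0.41, adjusted p = 0.00028 and 0.00437). Ptpn6 was under 1 FPKM in every day 4 library and entered the test through MEF and iPSC only. The median of the list was -0.04.

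Of 20 tested genes for nucleic acid sensing and its adaptors, 10 rose and 3 fell, against 20.1% and 15.4% of all genes tested. The median log2 fold change was 0.20. Ifi203 and Ifi204 stand in this list and in the list of further induced genes. Adar, which edits double-stranded RNA, rose (log2 fold change 0.58, SE 0.08, adjusted p = 0.000206), as did Nlrc5, an activator of MHC class I genes (log2 fold change 0.61, SE 0.10, adjusted p = 0.000658), and the adaptor Myd88 (0.30, adjusted p = 0.000854). A further 50 tested interferon-induced genes had 27 higher and 4 lower, with a median of 0.37. Parp12 (0.73, adjusted p = 0.000271), Parp9 (0.76, adjusted p = 0.000416) and Phf11d (0.77, adjusted p = 0.00053) rose, and the chemokine Ccl5 went the other way (log2 fold change -1.36, SE 0.20, adjusted p = 0.000416). Of 14 genes for antigen processing and MHC class I, 3 rose and 0 fell by limma, a share of higher genes near the 20.1% of all genes tested. At an unadjusted p under 0.05 there were 5 higher and 0 lower, and the median was 0.13. The 3 that rose were B2m, Tapbp and Psme2 (0.38, 0.34 and 0.31), and H2-D1 had 0.22 (adjusted p = 0.0768).

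The lists were counted in the other comparisons too. Of all genes tested, 34.2% rose and 27.6% fell in D4 against MEF, and 51% rose and 31.2% fell in iPSC against MEF. In the libraries labelled D4_DUX against MEF, 39% of them rose and 26.8% fell. In D4 against MEF, 7 of the 50 interferon-induced genes rose and 25 fell (median -0.45), and in the signal transduction list 3 of 16 rose and 10 fell (median -0.32). In the same comparison 5 of the 20 sensing genes rose and 7 fell (median -0.09), and 5 of the 14 antigen processing genes rose and 5 fell (median -0.13). In iPSC against MEF, 7 of the 50 rose and 30 fell (median -0.42), 2 of the 16 signal transduction genes rose and 11 fell (median -0.61), 3 of the 20 sensing genes rose and 12 fell (median -0.28), and 1 of the 14 antigen processing genes rose and 10 fell (median -0.50). In the libraries labelled D4_DUX against MEF, 17 of the 50 rose and 17 fell (median -0.01), and 4 of the 16 signal transduction genes rose and 9 fell (median -0.29). There 10 of the 20 sensing genes rose and 6 fell (median 0.21), and 5 of the 14 antigen processing genes rose and 0 fell by limma (5 higher and 3 lower at an unadjusted p under 0.05, median -0.01). Each comparison with MEF uses the same MEF libraries.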

How the data were processed

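A single table of FPKM values per gene, fragments scaled by gene length and library total, was deposited by the authors with 1 column for each of the 12 libraries; per the submitters' processing notes the build was mm10. Per the labels' protocols, stranded libraries of polyadenylated RNA were amplified for 15 cycles and read in pairs of 150 bp. The sources used here give no aligner, counting tool, annotation or strand setting. Of 40384 IDs, 40225 (99.6%) matched GENCODE M21 (build GRCm38), which gave symbols, positions and union exon lengths. Times these lengths, 43.2 to 45.1% of the low values came out as whole numbers of a step per library within 0.01, and 71.4 to 73.3% as multiples of 0.5 of it, too few for a count test; the step gave the depth and the value of 3 fragments. That floor covers counting error only. Identical columns were found in 0 of 66 pairs, and Pearson's r within groups was 0.9936 to 0.9966.

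Values were analysed as log2(FPKM + 1), so fold changes of low genes are understated. The test took the 17114 genes that reached 1 FPKM in 3 or more of the 12 libraries. All 39 genes passed this filter, Ifi202b, Oasl1 (6 libraries) and Mx1 (4) through MEF and iPSC only, and Oas3 (4) through day 4 only. One limma model (3.58.1, R 4.3.3) of 4 group means over 12 libraries with a mean-dependent variance prior gave two-sided p-values, adjusted after Benjamini and Hochberg over all genes tested, and called under 0.05. On simulated data of 17114 genes for D4_DUX against D4, tests recovered 83% of changes of 0.5 and 95% of changes of 1 on the log2 scale. That simulation drew genes independently, with the same SD for a gene in all groups, and changed genes picked at random. The 39 genes had a wider spread in D4 than all genes and shared their high and low libraries, so these rates may not hold for them. Groups do not overlap where every library of one lies beyond every library of the other.

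The members and lists were chosen with earlier results of these data known. Named genes were all 39 members, up to 4 tested genes with the smallest adjusted p from each list, and Duxf3. Some genes that this rule names are not reported here. Promoters came from RefSeq (GRCm38.p6); 28 of 33 windows matched the strand of an M21 transcript and 5, Stat2 among them, were not matched. Figures were drawn with matplotlib 3.10.9 in Python 3.11.15. Alternatives were pseudocounts of 0.1 and 0.5, no filter, a filter at 5 FPKM, TPM, median-ratio scaling, quantile normalization, array weights, a replicate block, a fit on only the compared groups, and each library left out.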

Additional observations from a re-analysis of the deposited data

How the results depend on the processing

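Of the called genes, 13 of 20 kept the call in every alternative for D4_DUX against D4, 19 of 25 for D4 against MEF, 17 of 19 for D4_DUX against MEF and 17 of 28 for iPSC against MEF. The median log2 fold change of the 39 genes ranged over 0.40 to 0.73, -0.78 to -0.51, -0.23 to 0.05 and -0.70 to -0.27 in these comparisons. With single libraries left out, the genes higher in D4_DUX than in D4 numbered 13 to 27 (13 without D4 replicate 1, 27 without D4 replicate 2); the cause was not tested. Array weights gave 29 and no filter gave 15, against 20. The main model shares the variance of a gene between groups, though the spread of the 39 genes was narrower in D4_DUX than in the others. Fits on only the compared groups gave 21 lower in D4 against MEF and 17 lower in iPSC against MEF, against 24 and 20. Such fits gave 21 higher in D4_DUX against D4, and 11 higher and 12 lower in D4_DUX against MEF, against 20, 10 and 9. Higher genes in iPSC over MEF were 5 with median-ratio scaling and 5 with quantile normalization, against 8. Irf3 and Oas3 in iPSC against MEF turned to -0.016 (adjusted p = 0.785) and -0.40 (adjusted p = 0.0126) with quantile normalization, against 0.26 and 0.09; the cause was not tested. Over all genes, no filter gave 13594 genes higher in iPSC than MEF and the filter at 5 FPKM 5570, against 8733; that filter, with 10501 genes tested, gave 3087 lower in D4 than MEF against 4720, and 2894 lower in D4_DUX than MEF against 4591. The labels do not say that replicate numbers pair libraries. Deviations of same-numbered libraries correlated at 0.025, 0.054 and -0.020 between D4_DUX and D4, and with a replicate block 20 genes were higher and 0 lower there, 1 and 23 in D4 against MEF, 10 and 9 in D4_DUX against MEF, and 7 and 18 in iPSC against MEF. Every library correlated best with its own number only for D4_DUX and MEF (0.060, 0.033 and 0.070), a hint from the data and not from the design. At this depth genes with few counted fragments are measured less precisely; Mx1, Oas3, Oasl1 and Rsad2 stayed under 2 FPKM in every day 4 library, where the pseudocount also shrinks fold changes.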
